A study of Homo sapiens with 6 samples.

Results

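The small nucleolar RNAs U3, U8 and U13 were examined as targets of tagged HSP70 proteins in HEK293 Flp-In T-Rex cells. This is a line of human embryonic kidney origin that carries a transgene under tetracycline control. The members were 7 RefSeq genes out of 1199 snoRNA genes: SNORD3A, SNORD3B-1, SNORD3B-2, SNORD3C and SNORD3D for U3, SNORD118 for U8 and SNORD13 for U13. They were chosen by name, and every deposited peak that shared at least 1 base with one of them was used, which gave 56 of 9974 peaks. FLASH-seq maps RNA that ultraviolet light has crosslinked to a purified protein. The baits were HSPA1A, a stress-inducible HSP70 chaperone, and HSPA8, its constitutive relative. Every line carried a transgene with a 3xFLAG-HBH tag, induced with 1 µg/ml tetracycline. Each bait had 2 biological replicates with 1 peak list each. Peaks of the tagged GFP control were not analysed here, and a control-bait background is therefore missing from every value. Where 4 values follow each other, their order is HSPA1A replicate 1, HSPA1A replicate 2, HSPA8 replicate 1 and HSPA8 replicate 2, called list order.

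Most snoRNAs guide a chemical modification of ribosomal RNA, whereas U3 and U8 are needed to cut the ribosomal RNA precursor. U3 base-pairs through its 5′ part with the precursor and takes part in the cuts that release 18S rRNA, while its 3′ domain holds the conserved boxes that bind fibrillarin, NOP56, NOP58, SNU13 and the U3-specific protein RRP9. U8 acts on the large-subunit rRNAs, and variants of its gene cause a brain disorder with leukoencephalopathy, calcifications and cysts. U13 guides an acetylation of 18S rRNA by NAT10. Unlike most human snoRNAs, which are cut from introns, these RNAs are made from their own promoters.

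All 7 genes carried a peak in all 4 lists. Of these, 5 are near-identical copies of U3, between which peaks are uncertain. Of the 1199 snoRNA genes, 5.42%, 1.83%, 1.83% and 4.67% carried a peak, in list order. A peak in every list was found at 10 snoRNA genes (0.834%), and these were the 7 members and 3 of the other 1192 genes. The 3 were SNORA73A and SNORA73B, the genes of the processing snoRNA U17, and SNORD68, which was named after its values were seen. In total 94 snoRNA genes had a peak in any list, 53 of them in 1 list. The abundance of an RNA and its crosslinking to a bait cannot be told apart from these lists, and the table does not say which snoRNA genes the cells express.

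The 56 peaks comprised 16, 15, 11 and 14 in list order. U3 genes held 14, 13, 9 and 12 of them, and U8 and U13 held 1 each in every list. All peaks of a gene lay on 1 strand, with 0 on the opposite strand, and 0 further peaks lay within 1000 bp on either side of any of the 7 genes. No peak on a member had more than 3 bases outside the annotated gene. The RefSeq table used gives no strand, so bases are counted below from the 5′ end in the direction of the peaks.

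**Figure D1:**
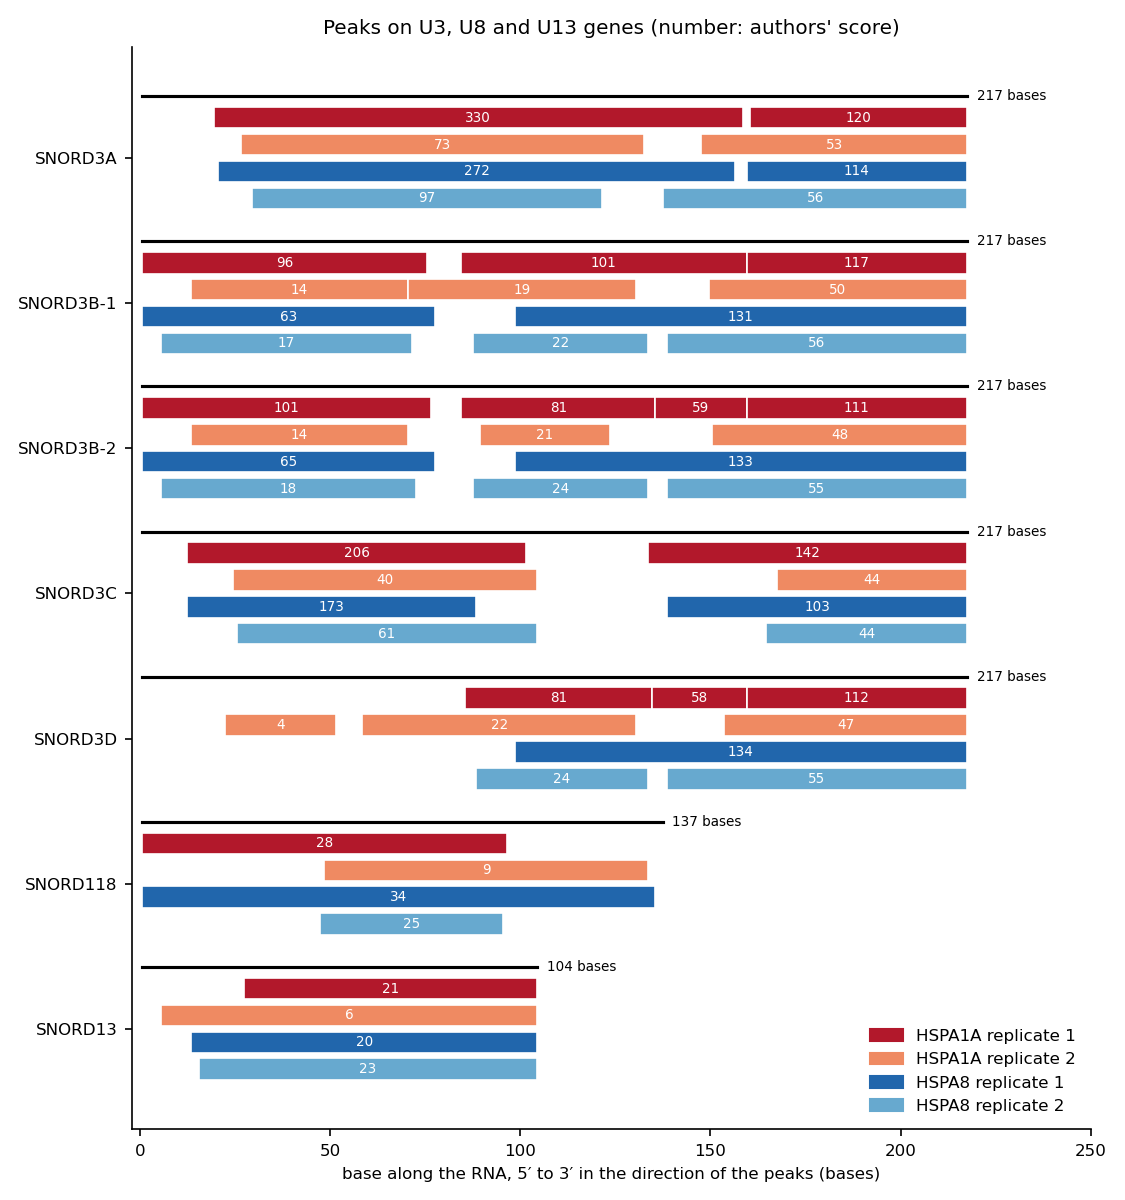
Peaks on the 7 genes in the 4 lists, drawn along each RNA from 5′ to 3′ in bases. Black lines show the RNA length, bars the peaks clipped to the gene, colours the list and the number in each bar the authors' score. In all 20 combinations of a U3 gene and a list a peak reached the last base, 217. U8 peaks stopped 2 to 42 bases short of base 137.

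The U3 genes lie on chromosome 17 of GRCh38, and each is 217 bp long. SNORD3B-1 (chr17:19061912-19062128, peaks on the plus strand) and SNORD3B-2 (chr17:19063920-19064136, minus strand) are 1791 bp apart. SNORD3A (chr17:19188016-19188232, plus strand) and SNORD3C (chr17:19190029-19190245, minus strand) are 1796 bp apart. SNORD3D (chr17:19112420-19112636, minus strand) lies alone between these pairs. The 5 copies are near-identical and how reads matching several places were counted is not given in the sources used here, so peaks are uncertain between copies and the copies are not independent measurements.

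The last 50 bases of U3 were covered in every copy and every list. Over the 5 copies and 4 lists, which make 20 combinations, bases 168 to 217 lay in a peak in all 20. These combinations are not independent, since the copies are near-identical, and they rest on 4 lists. The last base was covered in all 20, and 0 of these peaks ran past it. The first base was covered in 4 of 20, which were SNORD3B-1 and SNORD3B-2 in the lists numbered 1. Bases 1 to 5 were the least covered stretch, with 4 of 20. Coverage also dipped inside the RNA, to 10 of 20 at bases 78 to 84 and 9 of 20 at bases 134 to 137, and it reached 17 of 20 at bases 30 to 51 and 19 of 20 at bases 99 to 101.

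**Figure D2:**
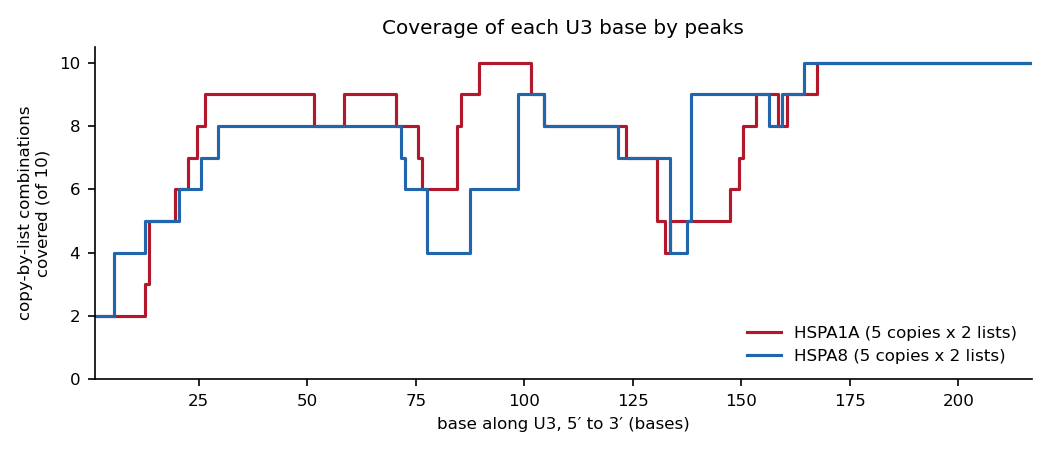
Number of copy-by-list combinations in which a peak covered each base of U3, for HSPA1A and HSPA8 separately (5 copies in 2 lists, at most 10). For both baits 10 of 10 were covered at bases 168 to 217 and 2 of 10 at bases 1 to 5. The copies are near-identical, so the combinations are not independent.

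SNORD3A had the highest score of the 7 genes in every list. Its best peak scored 330 and 73 with HSPA1A and 272 and 97 with HSPA8. The score is the authors' whole number per peak. Its meaning and how it depends on peak width are not stated, and it is ranked only within a list. The best SNORD3A peak was 139, 106, 136 and 92 bp wide in list order. This peak ran from base 20 to 158 in HSPA1A replicate 1 and from 21 to 156 in HSPA8 replicate 1. In the lists numbered 2 it was shorter, from 27 to 132 with HSPA1A and from 30 to 121 with HSPA8. A second peak covered the 3′ end and began at base 161, 148, 160 and 138 in list order. Its scores were 120, 53, 114 and 56, lower than the first peak of the same list each time. SNORD3A bases 1 to 19 lay in no peak of any list, and 158 of its 217 bases were covered in all 4.

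SNORD3C shared the 2-peak layout of its neighbour SNORD3A but with a wider break in the middle. Its first peak spanned bases 13 to 101 with a score of 206 in HSPA1A replicate 1 and bases 13 to 88 with 173 in HSPA8 replicate 1. In the lists numbered 2 it spanned bases 25 to 104 with a score of 40 for HSPA1A and bases 26 to 104 with 61 for HSPA8. The 3′ peaks scored 142, 44, 103 and 44 in list order. The 3′ peak was the lower of the pair in 3 lists and the higher in HSPA1A replicate 2. Bases 105 to 133 of SNORD3C lay in no peak of any list, whereas SNORD3A was covered in all 4 lists from base 30 to 121.

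SNORD3B-1 and SNORD3B-2 had almost the same covered bases as each other in 3 of the 4 lists, with identical peak limits in HSPA8 replicate 1. There both held a peak from base 1 to 77, scoring 63 and 65, and a peak from base 99 to 217, scoring 131 and 133. Covered bases of this pair overlapped by 99.5% of the bases covered in either in HSPA1A replicate 1, by 100% in HSPA8 replicate 1 and by 99.5% in HSPA8 replicate 2, the highest of the 10 pairs of copies in each list. In HSPA1A replicate 2 they overlapped by 85.4%, with middle peaks at bases 71 to 130 and 90 to 123, and the highest pair was SNORD3A and SNORD3B-1, with 91.0%. In HSPA1A replicate 1 the middle peak of SNORD3B-1 ran from base 85 to 159, whereas SNORD3B-2 had separate peaks at bases 85 to 135 and 136 to 159. The 5′ peaks of SNORD3B-1 and SNORD3B-2 scored 96 and 101 in that list. In HSPA1A replicate 2 both scored 14, and in HSPA8 replicate 2 they scored 17 and 18.

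The 5′ part of SNORD3D held no peak in 3 of the 4 lists. Bases 1 to 85 lay in no peak of HSPA1A replicate 1, bases 1 to 98 in none of HSPA8 replicate 1 and bases 1 to 88 in none of HSPA8 replicate 2. HSPA1A replicate 2 alone had a peak near the 5′ end, from base 23 to 51, with a score of 4, and its next peak began at base 59. The 3′ peaks of SNORD3D scored 112, 47, 134 and 55 in list order, close to those of SNORD3B-2 at 111, 48, 133 and 55. The share of SNORD3D covered was 60.8%, 76.0%, 54.8% and 57.1% in list order.

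Scores of the U3 peaks holding the last base lay in a narrower range over the 5 copies than those of all other U3 peaks pooled. The 2 sets are unlike. Each copy gave 1 peak with the last base per list, whereas the others, 9, 8, 4 and 7 in list order, pool several positions. In HSPA8 replicate 1 the peaks with the last base began at base 99 in SNORD3B-1, SNORD3B-2 and SNORD3D. Peaks holding the last base scored 111 to 142 and 44 to 53 in the HSPA1A lists, and 103 to 134 and 44 to 56 in the HSPA8 lists. The other U3 peaks scored 58 to 330, 4 to 73, 63 to 272 and 17 to 97 in the same order. The 3′ peak was the best-scored one in 13 of the 20 combinations: every list of SNORD3B-1, SNORD3B-2 and SNORD3D, and 1 list of SNORD3C. Whether shared reads set the narrow range at the 3′ end was not tested.

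**Figure D3:**
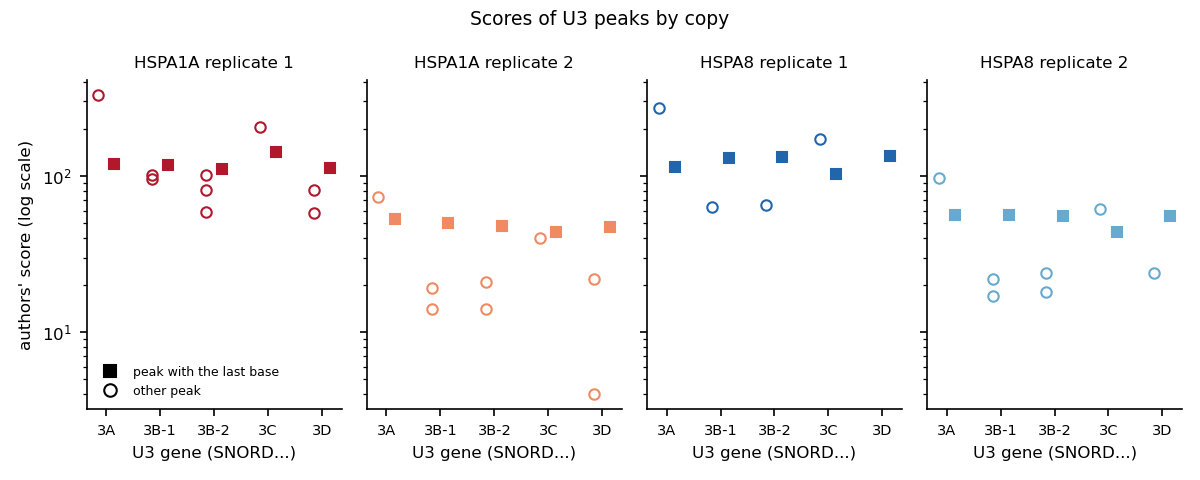
Authors' score of each U3 peak on a log axis, by gene copy, with 1 panel per list. Filled squares are the peaks that hold the last base and open circles all other U3 peaks. The squares of a list lie close together (44 to 56 in HSPA8 replicate 2). The circles, which pool several positions along the RNA, spread (17 to 97) and are highest for SNORD3A.

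U8, from SNORD118, differed from U3 in where its peaks lay. The gene spans chr17:8173452-8173588 on GRCh38, 137 bp inside the annotated span of the protein-coding gene TMEM107, with peaks on the minus strand. Its peak ran from base 1 to 96 with a score of 28 in HSPA1A replicate 1 and from base 49 to 133 with a score of 9 in HSPA1A replicate 2. In HSPA8 replicate 1 it covered bases 1 to 135, began 3 bases before the annotated 5′ end and scored 34. In HSPA8 replicate 2 it covered bases 48 to 95 and scored 25. The 4 peaks had bases 49 to 95 in common, and the last 2 bases lay in no peak. TMEM107 had 1 peak in each list, and in each this was the one on SNORD118.

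U13, from SNORD13 (chr8:33513475-33513578 on GRCh38, 104 bp), carried 1 peak per list on the plus strand, and each covered the 3′ end. The peak began at base 28 with a score of 21 in HSPA1A replicate 1 and at base 6 with a score of 6 in HSPA1A replicate 2. It began at base 14 with a score of 20 in HSPA8 replicate 1 and at base 16 with a score of 23 in HSPA8 replicate 2. All 4 covered bases 28 to 104, and the peak of HSPA1A replicate 2 ran 2 bases past the annotated end. Peaks of U3 and U13 therefore reached the annotated 3′ end in every list, and those of U8 in none. The U8 peaks ended 41, 4, 2 and 42 bases short of it in list order.

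Among snoRNA genes the U3 copies held the first 5 places by best score in each list, and SNORD3A was first in all 4. The copies are near-identical and peaks are uncertain between them, so these are not 5 independent results. SNORD118 ranked 6, 8, 6 and 6 and SNORD13 ranked 7, 14, 8 and 7 among the 65, 22, 22 and 56 snoRNA genes with a peak, in list order. Against whole lists they stood lower. The best SNORD3A peak scored above 89.8% and 81.5% of all peaks in the HSPA1A lists and above 84.8% and 81.0% in the HSPA8 lists. The SNORD118 peak scored above 69.3%, 35.0%, 68.2% and 51.6% of peaks, and the SNORD13 peak above 65.6%, 12.7%, 62.7% and 50.4%. In HSPA1A replicate 2 the U8 and U13 peaks were below the median score of the list, which was 13. The median member peak scored above 81.1%, 62.9%, 78.4% and 57.8% of its list, and the median peak on other snoRNA genes above 24.4%, 12.7%, 29.8% and 11.1%. U3 held 14, 13, 9 and 12 of the 16, 15, 11 and 14 member peaks, so the member median mainly describes U3. Member peaks were also wider, with medians of 66.5, 67, 91 and 73 bp. Peaks on other snoRNA genes had medians of 54, 45, 67.5 and 46 bp, and scores were not adjusted for width.

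**Figure D4:**
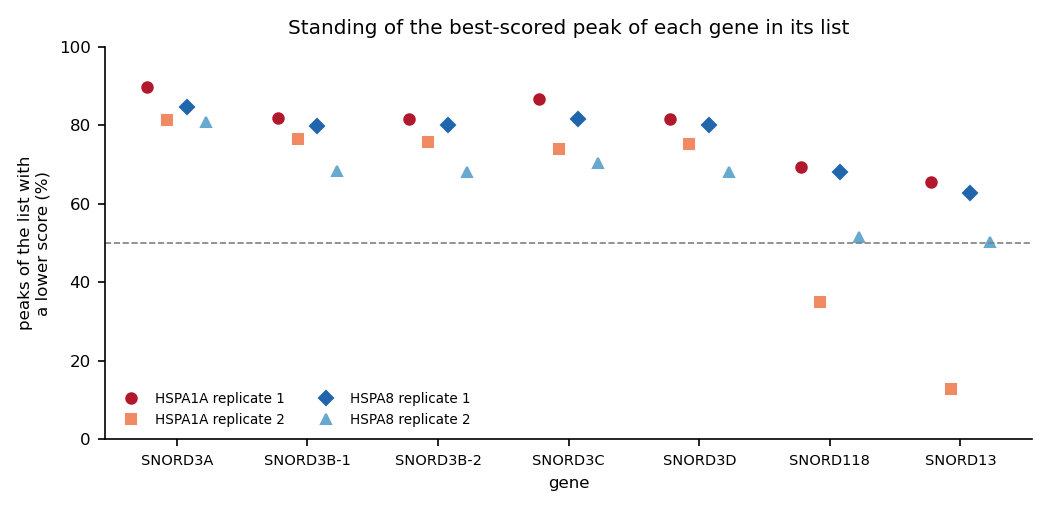
Percentage of a list's peaks with a lower score than the best peak of each gene, with 1 point per gene and list. The dashed line marks 50%. All U3 points lie above it, with SNORD3A between 81.0% and 89.8%, and the SNORD118 and SNORD13 points of HSPA1A replicate 2 lie below it at 35.0% and 12.7%.

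Whether the 2 HSP70 proteins differed on these RNAs was then examined. Member peaks made up 0.583% of the HSPA1A replicate 1 list (95% Wilson interval 0.359 to 0.945) and 0.729% of the HSPA1A replicate 2 list (0.442 to 1.20). They made up 0.351% of HSPA8 replicate 1 (0.196 to 0.628) and 0.686% of HSPA8 replicate 2 (0.409 to 1.15). These intervals hold counting error only, and peaks side by side on an RNA are not independent. HSPA1A had a mean of 0.656% ± 0.103 (SD, n = 2). The HSPA8 mean was 0.519% ± 0.237 (SD, n = 2). The difference of 0.137 percentage points was smaller than the spread of HSPA8, and the lists of the baits overlapped (two-sided exact permutation, p = 0.667). With 2 lists against 2, complete separation already occurs in 2 of the 6 label orders, so p cannot pass a threshold of 0.05. Among peaks on the 25 chromosomes the difference was -0.0341 (exact permutation, p = 1), since only the HSPA8 lists hold peaks on other scaffolds. With peaks within 50 bp merged it was -0.191 (exact permutation, p = 1). Without HSPA8 replicate 1 it was -0.0305, and without HSPA8 replicate 2 it was 0.304.

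The part of each RNA under peaks did not separate the baits either. On average over the 5 copies, 84.6% and 75.0% of U3 was covered with HSPA1A and 79.3% and 74.7% with HSPA8 (exact permutation test, two-sided, p = 0.667). For U8 the shares were 70.1% and 62.0% with HSPA1A and 98.5% and 35.0% with HSPA8, and for U13 they were 74.0% and 95.2% against 87.5% and 85.6% (p = 1 in both exact permutation tests). The best-score percentiles of U3, U8 and U13 gave p of 0.667, 1 and 1 (exact permutation). Over these 7 comparisons the Benjamini-Hochberg adjusted p was 1 throughout. The percentiles refer to whole lists, of which only the HSPA8 lists hold peaks on other scaffolds. On the chromosomes alone the U3 percentiles were 89.8 and 81.5 with HSPA1A and 89.6 and 83.6 with HSPA8. The exact test cannot pass 0.05 with 2 lists per bait, so these p-values do not show that the baits bound the RNAs alike.

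Base by base over all 7 genes, the 2 lists numbered 1 were the most alike. Of the member bases covered in either list, HSPA1A replicate 1 and HSPA8 replicate 1 shared 89.6%. The replicates of HSPA1A shared 71.2% and those of HSPA8 78.9%. The other pairs of lists from different baits shared 84.0%, 71.9% and 79.2%. U8 was the least alike between the replicates of a bait, with 36.1% of covered bases shared for HSPA1A and 35.6% for HSPA8. Taken by RNA, the lists numbered 1 were the most alike pair for U3 (92.8%) and U8 (71.1%) but not for U13. There they shared 84.6%, against 97.8% for the HSPA8 replicates.

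A list of 12 genes was counted for comparison. It held other RNAs of ribosomal RNA processing and also RPPH1, which is not an RNA of that kind. At least 1 peak was present at 7, 4, 5 and 8 of the 12 genes in list order, at 9 in any list and at 4 in all lists. The shares over all snoRNA genes were 5.42%, 1.83%, 1.83% and 4.67% in list order, 7.84% in any list and 0.834% in all lists. RMRP and RPPH1 are not among those snoRNA genes, so these shares are no background for them. Both had a peak in every list and are part of each count above. The 4 genes in all lists were SNORA73A, SNORA73B, RMRP, the RNA of RNase MRP, and RPPH1, the RNA of RNase P. RMRP had best scores of 167, 242, 61 and 77, above SNORD3A in HSPA1A replicate 2 and below it in the other 3 lists. SNORA73A had best scores of 21, 5, 21 and 17 and SNORA73B of 18, 15, 14 and 15, below every U3 gene in every list. SNORA73B scored above U8 (9) and U13 (6) in HSPA1A replicate 2. SNORA73A equalled U13 in HSPA1A replicate 1, at 21, and passed it in HSPA8 replicate 1, with 21 against 20. Otherwise both genes scored below U8 and U13. Of the 5 genes of U14, which also acts in 18S processing, 3 had no peak, SNORD14C had one in 3 lists and SNORD14E in 1. SNORD22, the U22 gene, had a peak in HSPA1A replicate 1 alone, and SNORA63 in HSPA8 replicate 2 alone. SNORA62 had peaks in both of these lists.

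Genes of proteins that bind these RNAs or act with them were counted as well. Of 24 such genes, 3 had a peak in any list (against 7.70% of 20050 protein-coding genes) and 1 in all lists (against 0.798%). The latter was NOP56, a core box C/D protein, and all of its peaks lay on snoRNA genes within it: SNORD110, SNORA51, SNORD56 and SNORD57. The peak on NCL, which encodes nucleolin, lay on SNORD82. LSM3 had a single peak, with a score of 5. RRP9, FBL, NOP58, SNU13 and NAT10 had no peak in any list.

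Dispersed relatives of U3 and U13 were counted too. Of 6 genes named as pseudogenes, 3 had a peak in any list, against 7.84% of snoRNA genes and 3.09% of 15580 pseudogenes, and 0 had one in all lists. SNORD3P3 had peaks in both lists numbered 1, with best scores of 21 for HSPA1A and 11 for HSPA8. SNORD3P4 had a peak in HSPA1A replicate 1 with a score of 10, and SNORD13P3 one in HSPA8 replicate 2 with a score of 5. SNORD3P1, at 216 bp nearly the length of U3, had no peak. Of the 7 further U3-like genes SNORD3E to SNORD3K, which were added to the list after the files were seen, 0 had a peak.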

How the data were processed

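The deposited data were 4 peak lists, 1 per replicate of HSPA1A and HSPA8, with 2744, 2059, 3131 and 2040 peaks. Per the labels' protocols, RNase I trimmed the crosslinked RNA, random tags served to merge PCR duplicates and further tags marked the replicates. The submitters' processing notes name Trim Galore 0.4.4, FastQC, STAR 2.6.0b, deepTools and GRCh38. How peaks were called and how reads matching several places were counted is not given in the sources used here. The score per peak is deposited by the authors without a definition. Read depth is unknown.

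Peaks were assigned to RefSeq genes (GRCh38.p14) by an overlap of at least 1 bp on either strand, since the gene table gives none. Starts were made 1-based. A score percentile is the share of a list's peaks with a lower score. Baits were compared by exact two-sided permutation over the 6 orders of bait labels. Shares have 95% Wilson intervals. Python 3.11.15, numpy 2.4.6, pandas 2.3.3 and scipy 1.17.1 were used, and the code was tested on simulated peaks on 200 genes. Members, gene lists and tests were chosen with earlier results of these data known. Named genes were all 7 members and the genes of a fixed list. It held processing RNAs, RPPH1, partner proteins, neighbours and pseudogenes. Exceptions are marked.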

Additional observations from a re-analysis of the deposited data

How the results depend on the processing

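Of 95 values under other settings, 76 kept their direction or stayed within the set range, 16 moved and 3 reversed. Many of the 76 could not have come out otherwise, so the tally overstates how much was checked. Member peaks lie almost wholly inside the genes, so the midpoint and 50 percent settings repeated every value. Widening genes by 100 bp cannot lower the number with a peak. The HSPA1A lists hold no peaks off the chromosomes, and the replicate block leaves the difference in share unchanged. The number of member peaks stayed within 1.5 times in every list by midpoint, with at least 50 percent of the peak inside, with scores at or above the list median and with equal numbers of peaks; merging peaks or counting U3 once lowers it by construction. Under these settings and with genes widened by 100 bp, all 7 genes had a peak in every list, with one exception: with scores at or above the list median, 5 remained in HSPA1A replicate 2, without SNORD118 and SNORD13, whose percentiles then have no value. The difference in share of peaks, HSPA1A minus HSPA8, reversed to -0.0341 percentage points on chromosomes 1 to 22, X, Y and M and to -0.191 with peaks within 50 bp merged (exact permutation, p = 1 for each), and lay between -0.0305 and 0.304 when single replicates were left out. Restricting a list to scores at or above its median removes the lower peaks by construction, so the best-score percentiles fell: U3 to 80.2, 64.1, 70.8 and 62.3 in list order, U8 to 40.3, 38.9 and 3.89, and U13 to 33.0, 28.4 and 1.56 in HSPA1A replicate 1 and HSPA8 replicates 1 and 2. On the chromosomes alone U3, U8 and U13 rose to 89.6, 75.2 and 69.5 in HSPA8 replicate 1 and to 83.6, 57.3 and 55.9 in HSPA8 replicate 2. The strand could not be used as a setting, and ignoring it is the analysis as reported. Equal numbers of top-scoring peaks (2040 per list) were chosen after seeing the data. The labels tie the replicate numbers to no shared day or batch. For each gene and bait, the share of RNA covered in replicate 2 was subtracted from that in replicate 1. These differences correlated between HSPA1A and HSPA8 at a Pearson r of 0.188 over the 7 genes, which are not independent. The 2 lists numbered 1 were the pair of lists that shared the most covered member bases (89.6%). With the replicate block the difference in share of peaks was 0.137 (sign flips, exact permutation p = 0.5, which is the lowest that 2 pairs can give).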
